A study of Danio rerio with 4 samples.

Results

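The control cells of this study came from zebrafish gastrulae of the AB strain at 9 hours post fertilization (hpf). By their titles the embryos were control mosaics for green fluorescent protein (GFP), and the sorted fraction is called GFP_min, taken here as the GFP-negative cells. The labels name no β-catenin construct, other allele or agent for them, and describe them only as early embryonic cells. They were chosen as the control columns of the table, with all its gene rows. These cells were read in 2 libraries, lot 1 and lot 2, of the 4 libraries in the series; the other 2 came from mosaics for an active form of β-catenin (β-catCA) and were not used here. The labels do not say how the mosaics were made, which tissues the GFP reached, how many embryos were pooled in a lot or whether the lots were separate clutches, so the spread between them may be technical.

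Gastrulation is the stage at which the embryo sets up its germ layers. In zebrafish the blastoderm spreads over the yolk in epiboly, cells move inward to form mesoderm and endoderm, and the ectoderm left outside becomes neural plate and epidermis. Nodal and Fgf signals induce mesoderm, Bmp signals act on the ventral side against dorsal antagonists such as Chordin, and Wnt and retinoic acid signals pattern the posterior. Zygotic transcription is under way at this stage, while part of the maternal RNA supply may still be present.

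RNA was made into CEL-Seq2 libraries, which read the 3′ end of each transcript and attach a unique molecular identifier (UMI) to each molecule, so that long transcripts are not counted more often than short ones and the counts of genes can be set side by side. Lot 1 held 61304 gene UMIs and lot 2 held 59260. Levels are given as CPM, the count scaled to a gene total of 1e+06 UMIs, on which a single UMI is worth 16.3 CPM in lot 1 and 16.9 CPM in lot 2. A gene with no UMI may still have had up to 3, or 48.9 CPM in lot 1 and 50.6 CPM in lot 2. Such floors and all intervals below are at 95% and cover counting error only. Among the 32266 gene rows, 5950 had a UMI in lot 1 and 5841 in lot 2, 7409 in either lot and 4382 in both. A count of 0 cannot be read as absence of expression, since a 3′ end that the annotation misses is not counted for its gene.

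A small number of genes held a large part of the gene UMIs. The mean of the lots put 50% of the UMIs in 192 genes and 90% in 2312 genes. The 10 most abundant rows held 15.4% of the UMIs and the top 100 held 40.9%. At the other end, 2202 genes were seen as a single UMI over both lots, and the median gene with any UMI had 3. The 1013 genes with at least 20 UMIs in all held 77.6% of the UMIs.

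The most abundant row, ENSDARG00000080337, has no symbol in the name tables used here. It had 3779 UMIs in lot 1 and 3066 in lot 2, or 6.16% and 5.17% of the gene UMIs. The published CEL-Seq2 protocol uses UMIs of 6 bases, which give 4096 distinct tags; the sources used here give no tag length for these libraries. With tags of that length the row would lie near the highest count that could be recorded, and its values would be lower bounds. Corrected for molecules that share a tag, it would stand at 15.15% in lot 1 and 8.98% in lot 2.

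Among genes with a symbol, the mitochondrially encoded MT-ND4, a subunit of respiratory complex I, came first. It had 962 and 1130 UMIs in lots 1 and 2, or 17380 ± 2387 CPM (SD, n = 2). hnrnpa0l, which encodes a heterogeneous nuclear ribonucleoprotein (hnRNP) that binds pre-mRNA, followed with 1107 and 583 UMIs. It was the member of the top 10 that differed most between the lots, at 18058 CPM in lot 1 and 9838 CPM in lot 2.

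gjc4b, a connexin gene of gap junctions, had 805 and 639 UMIs and 11957 ± 1660 CPM. cirbpa, a cold-inducible RNA-binding protein gene, had 696 and 621 UMIs. HSPB1, a small heat shock protein gene, had 548 and 729 UMIs. HSPB1 had more UMIs in lot 2, whereas gjc4b and cirbpa had more in lot 1, all by less than 1.5-fold.

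The next genes in rank encode nuclear and RNA-binding proteins and a cytoskeletal protein. KHSRP, which binds AU-rich RNA, had 8633 ± 157 CPM, and hmga1a, a chromatin protein that binds AT-rich DNA, had 8406 ± 976 CPM. hnrnpa0b stood at 7898 ± 550 CPM, and the β-tubulin gene tubb2b at 7831 ± 94 CPM. The tubb2b counts were 476 and 468 UMIs, among the closest of any abundant gene.

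A transcription factor gene of patterning also stood among them. pbx4, which encodes a homeodomain cofactor of Hox proteins, had 436 and 409 UMIs and 7007 ± 149 CPM, rank 12 of all rows. Below it came the constitutive chaperone HSPA8 at 6799 ± 1148 CPM, the elongation factor eef1a1l1 at 6797 ± 362 CPM and the DNA topoisomerase TOP1 at 6471 ± 132 CPM. malat1, a long noncoding RNA kept in the nucleus, had 296 and 294 UMIs, and the actin gene actb2 had 202 and 250 UMIs.

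**Figure D1:**
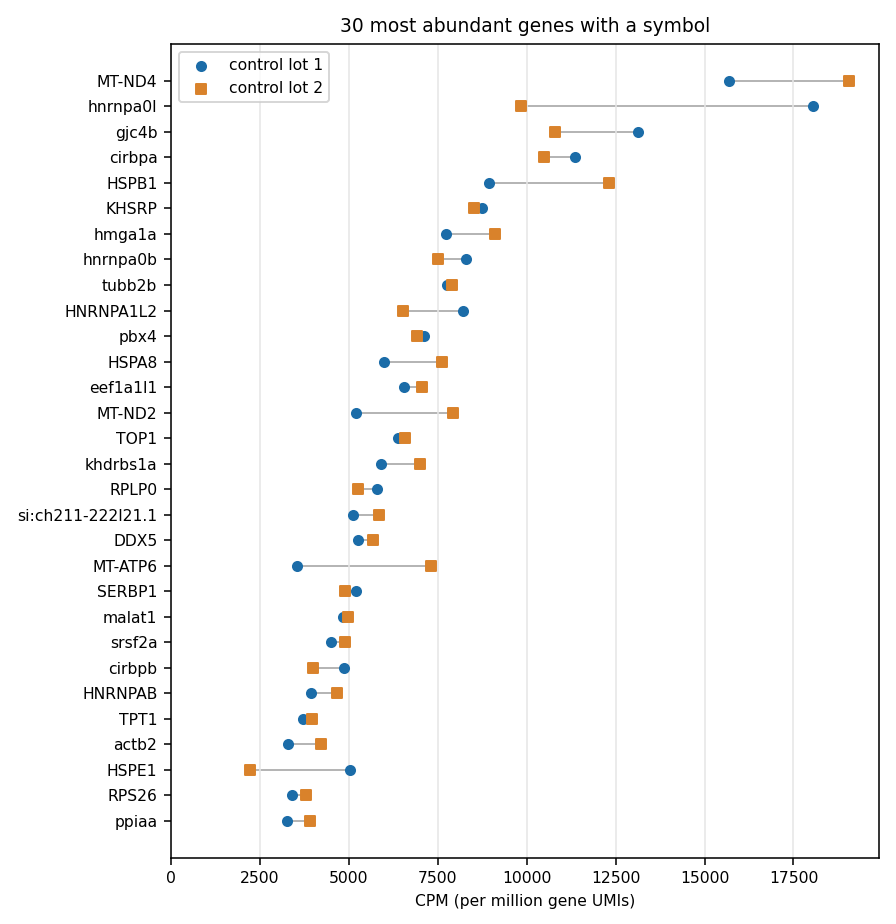
CPM (x axis) of the 30 most abundant genes with a symbol, with a circle for control lot 1 and a square for control lot 2 joined by a line. tubb2b, pbx4 and malat1 had nearly the same level in both lots, while hnrnpa0l and HSPE1 were higher in lot 1 and MT-ATP6 was higher in lot 2.

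Genes were next grouped into 28 functional classes by symbol, with each gene in at most 1 class. The classes held 2368 gene rows, of which 1468 had a UMI, where 7409 of all 32266 gene rows had one in either lot. They covered 46.99% of the UMIs in lot 1 and 48.1% in lot 2. Below, the classes are taken up by theme rather than by size, starting with the largest class. A class sum rises with the number of genes listed as well as with their levels.

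Genes of pre-mRNA splicing formed the largest class. They held 9.55% of the UMIs in lot 1 (interval 9.30% to 9.79%) and 8.50% in lot 2 (8.27% to 8.74%), and 122 of 132 members had a UMI. The intervals overlapped with those of no other class. After hnrnpa0l and hnrnpa0b, the leading members were HNRNPA1L2 with 503 and 387 UMIs, srsf2a with 276 and 290 UMIs and HNRNPAB with 241 and 276 UMIs. srsf2a encodes an SR protein, a family that helps define exons. The 3 leading members held 32.4% of the UMIs of the class.

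A second list of RNA-binding regulators of early embryos, compiled by name and partly shared with other classes, held 5.13% and 4.67% of the UMIs. Besides cirbpa and KHSRP it was led by khdrbs1a, the gene of the signalling-linked RNA-binding protein Sam68, with 362 and 414 UMIs. SERBP1, whose product binds mRNA and ribosomes, had 319 and 290 UMIs. elavl1a, which encodes a stabilizer of AU-rich transcripts, had 226 UMIs in lot 1 and 98 in lot 2. DEAD and DEAH box helicases, which unwind RNA, added 1.58% and 1.51%, led by DDX5 with 322 and 337 UMIs.

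Chaperones and folding factors held 4.69% of the UMIs in lot 1 and 5.02% in lot 2. HSPB1 made up 21.8% of the class and HSPA8 followed. The mitochondrial chaperonin subunits HSPE1 and HSPD1, whose products fold proteins together, had 308 and 219 UMIs in lot 1. In lot 2 they had 132 and 168, so that HSPE1 was the more abundant of the pair in lot 1 and HSPD1 in lot 2. The cyclophilin gene ppiaa had 200 and 231 UMIs.

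Cytosolic ribosomal protein genes held 4.104% of the UMIs in lot 1 and 4.46% in lot 2. A UMI was found for 83 of the 85 members. Their levels were far from even: RPLP0, part of the ribosomal stalk, had 355 and 312 UMIs, RPS26 had 209 and 224, RPL6 had 150 and 170 and RPS6 had 112 and 127. RPLP0 alone made up 12.9% of the class. Translation factors held 2.40% and 2.45%, led by eef1a1l1, and the nucleolar and ribosome assembly genes held 1.40% and 1.39%, led by nucleolin (ncl) with 159 and 115 UMIs.

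The class of mitochondrially encoded genes held 13 rows, those found by symbol. All had a UMI, and together they held 3.31% of the UMIs in lot 1 and 4.39% in lot 2. Rows without a symbol, such as the most abundant row, could not be placed in this class, so the sum need not be the whole mitochondrial share. MT-ND4 contributed 45.2% of that sum. MT-ND2 had 318 and 470 UMIs and MT-ATP6, a subunit of ATP synthase, had 217 and 433. The nuclear-encoded members of the respiratory chain held 1.06% and 1.03%, led by the ATP synthase gene atp5mc3b with 80 and 45 UMIs. The glycolysis class was the smallest of the 28, at 0.114% (0.0890% to 0.144%) and 0.106% (0.0817% to 0.136%). Of its members, the lactate dehydrogenase gene LDHB had 14 UMIs in each lot, the aldolase gene ALDOA had 14 and 12, and GAPDH had 2 and 3.

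Nuclear proteins of chromatin held 3.41% and 3.27% of the UMIs. TOP1 led, before the histone chaperone SET with 197 and 219 UMIs and SMARCC1, a core subunit of BAF remodelling complexes, with 190 and 179. High-mobility-group genes held 1.77% and 1.86% with only 17 members, and hmga1a supplied 46.3% of this. Histone genes held 0.697% in lot 1 and 0.967% in lot 2, led by the replacement histone H3.3 genes h3f3a with 164 and 187 UMIs and h3f3d with 117 and 175 UMIs. The core histone genes hist1h2a3 and hist1h2a11 had 1 UMI each over both lots, and 11 of the 22 histone rows had none. Whether these libraries capture the transcripts of all histone genes equally was not tested, so the low counts were not read as low expression.

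Genes of dividing cells were present in every phase class. DNA replication genes held 1.19% and 1.17% of the UMIs, led by MCM7, part of the replicative helicase, with 134 and 178 UMIs and by the sliding clamp PCNA with 146 and 120. Genes of G2 phase, mitosis and the spindle held 1.07% and 1.08%. There the checkpoint gene BUB3 had 96 and 102 UMIs and the kinase AURKB had 38 and 37. G1 cyclins and cell cycle inhibitors held 0.347% and 0.363%, and cyclin D1 (CCND1) made up 48.4% of that with 108 and 99 UMIs.

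Protein turnover and traffic were spread over more genes. Ubiquitin and SUMO genes held 1.13% of the UMIs in lot 1 and 1.31% in lot 2, led by sumo3a, a small modifier of nuclear proteins, with 136 and 159 UMIs and by the ubiquitin gene ubc with 96 and 85. Proteasome subunits held 0.780% and 0.736%, and 29.3% of that was PSMD14, the deubiquitinase of the proteasome lid, with 149 and 119 UMIs. Secretory pathway genes held 0.951% and 1.08%, and their leading member TMED7, a cargo receptor gene, made up 6.29%. Nuclear transport genes held 0.874% and 0.861%, led by the importin genes KPNA4 with 44 and 47 UMIs and KPNB1 with 38 and 46. In the last 2 classes no member dominated the sum.

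The cytoskeleton classes were of like size, with actin genes at 1.42% and 1.47% and tubulin genes at 1.37% and 1.41%. After actb2, the membrane-linked actin regulator marcksl1b had 116 and 103 UMIs and the actin monomer-binding peptide gene tmsb4x had 111 and 75. Cell adhesion and junction genes held 1.79% and 1.56%, but gjc4b was 71.3% of that class. CTNNB1, the gene of β-catenin, had 120 and 103 UMIs and ctnna1, the gene of its partner α-catenin, had 73 and 67. Extracellular matrix genes and their receptors held 0.237% and 0.258%, led by fibronectin (FN1) with 34 and 37 UMIs. A UMI was found for 31 of 200 members, against 7409 of 32266 over all gene rows.

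**Figure D2:**
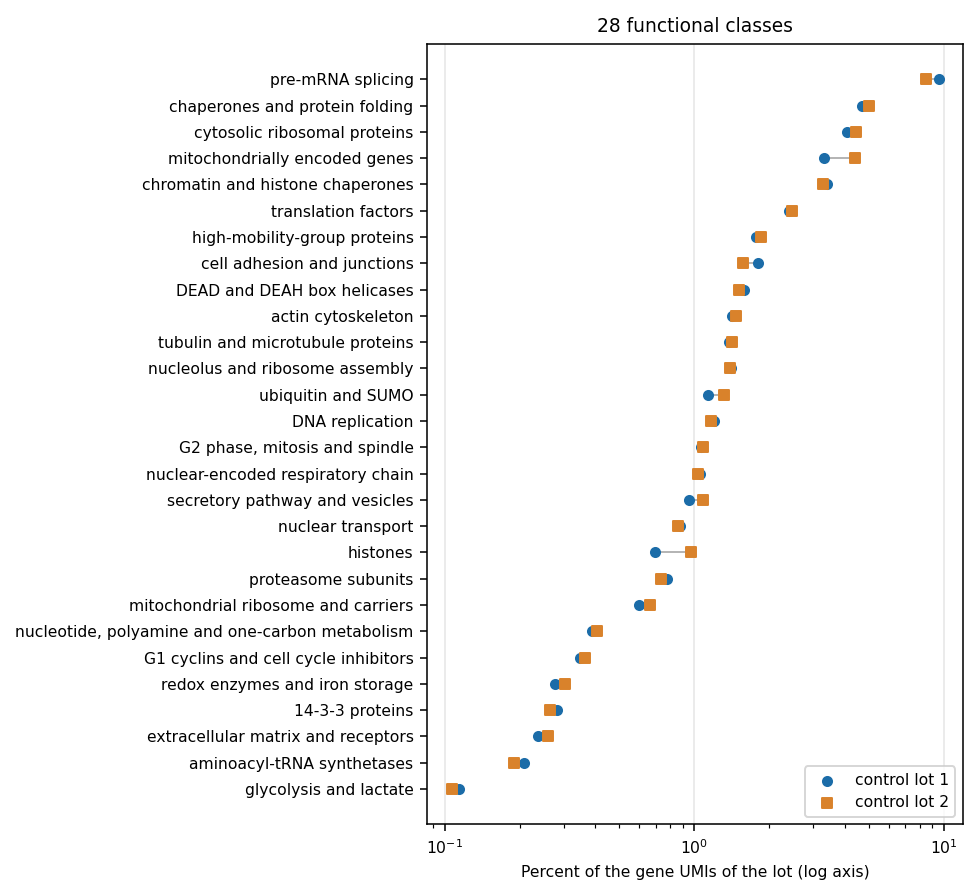
Percent of the gene UMIs of each control lot (x axis, log scale) in each of the 28 functional classes, ordered by the mean of the lots, with a circle for lot 1 and a square for lot 2. Splicing genes stood first at 9.55% and 8.50% and glycolysis genes last at 0.114% and 0.106%; histones and mitochondrially encoded genes show the widest gaps between the lots.

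Many zebrafish genes exist as pairs of copies, and close relatives can also share a role. Of the 71 pairs listed, 7 could not be told apart in the symbol table and 52 had at least 20 UMIs in all. In 25 of these 52 pairs over 90% of the UMIs came from 1 member, and 10 pairs had a member with no UMI. In 49 pairs the same member was the more abundant in both lots. Counting can split reads between near-identical copies, and a missed 3′ end can hide a copy, so these shares describe the counts.

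β-catenin itself was an extreme case. CTNNB1 had 223 UMIs over both lots and ctnnb2 had none, which makes CTNNB1 at least 74.3-fold higher if ctnnb2 had the 3 UMIs that a count of 0 allows over both lots. hmga1a had 473 and 539 UMIs against 1 and 0 for hmga1b. sox19a, a neural SoxB1 factor gene, had 48 and 31 UMIs against 2 and 1 for sox19b. In each of these pairs nearly all counts fell on the same copy in both lots.

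Other pairs had a clear main copy and a measurable second one. actb2 took 92.7% of the actin pair in lot 1 (exact binomial interval 88.4% to 95.7%) and 90.9% in lot 2 (86.9% to 94.0%). hnrnpa0b took 92.7% and 90.6% against hnrnpa0a, and srsf2a took 95.5% and 94.5% against srsf2b. hnrnpa0l, which was not part of the hnrnpa0 pair, had more UMIs than hnrnpa0b, at 1107 in lot 1 and 583 in lot 2. sumo3a took 81.4% and 84.6% against sumo3b. cirbpa took 70.0% (67.1% to 72.9%) and 72.4% (69.3% to 75.3%) against cirbpb, an intermediate share that the lots gave within each other's intervals.

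Near-even pairs were fewer. The interval of the pooled share included 50% in 7 pairs, among them npm1a and npm1b, genes of the nucleolar protein nucleophosmin, with 22 and 20 UMIs against 12 and 19. marcksl1b took 58.0% and 55.7% against marcksl1a. The related histone chaperone genes ANP32A and ANP32B changed order between the lots: ANP32A took 45.3% in lot 1 (36.1% to 54.8%) and 69.3% in lot 2 (57.6% to 79.5%), and these intervals did not overlap.

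**Figure D3:**
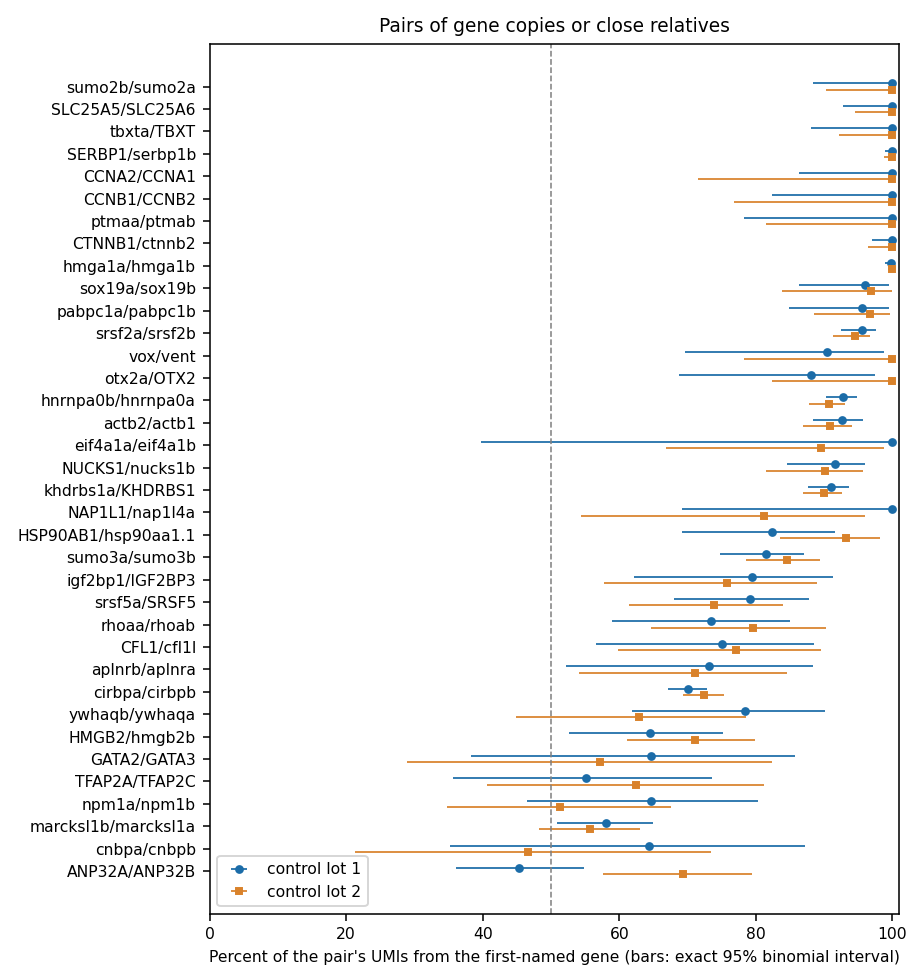
Share of the UMIs of each pair that came from the first-named gene (x axis, percent), for control lot 1 (circles) and lot 2 (squares), with exact 95% binomial intervals as bars and a dashed line at 50%; pairs whose members have the same symbol are left out. The first-named gene is the one with more UMIs over both lots, so the pooled share of a pair cannot fall below 50%. ANP32A with ANP32B is a pair whose intervals in the lots do not overlap.

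Marker genes of the layers and lineages of the gastrula were summed next. They were chosen with earlier results of these data known and no other stage was compared, so the labelled stage was not tested. In a bulk sample a low sum can mean few cells of a type or little RNA of the gene per cell, and these cannot be told apart. The sums also depend on which genes were listed. Markers of paraxial mesoderm held 0.331% of the UMIs in lot 1 and 0.415% in lot 2, those of the neural plate 0.284% and 0.218%, and those of axial mesoderm 0.201% and 0.209%. Markers of the enveloping layer held 0.111% and 0.0827% and those of epidermal ectoderm 0.0865% and 0.0759%. Prechordal plate markers held 0.0326% and 0.0405%, ventrolateral mesoderm markers 0.0163% and 0.0186% and endoderm markers 0.0147% and 0.0101%. Among 7 marker genes of differentiated tissues that were in the table, a single UMI was found, for the neuronal gene ELAVL3 in lot 2. The fuller list of differentiated tissues had 6 UMIs in lot 1 and 2 in lot 2, in 6 of its 44 rows, led by an ACTA1 row with 3 in all. The genes for embryonic globin (hbae3), fast muscle myosin (myhz1.1), lens crystallin (CRYAA) and insulin (ins) were at 0. Both lists hold the muscle actin gene actc1b, also at 0, but not the cardiac-type actin genes actc1a and actc1c. Each of those had more UMIs in each lot than the fuller list, as given under Other observations. The low sums therefore hold for the listed genes only.

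Paraxial and tailbud mesoderm genes were the most abundant of the layer lists, at 0.755% and 0.977%, with a UMI for 33 of 42 members. msgn1, which encodes a basic helix-loop-helix factor of presomitic progenitors, had 95 and 131 UMIs. tbx16, a T-box gene whose loss in zebrafish depletes trunk paraxial mesoderm, had 88 and 93 UMIs, and tbx6 had 11 and 23. The Hairy-related gene HES6 had 36 and 61 UMIs, cdx4, a caudal-type homeobox gene of the posterior body, had 34 and 31, and ALDH1A2, which makes retinoic acid, had 21 and 34. The muscle determination factor gene MYF5 had 15 and 17 UMIs and the segmentation clock gene her7 had 18 and 12. Of the 13 members with at least 20 UMIs, 2 were past 2-fold toward lot 2 and 1 toward lot 1, where 4.94% and 3.55% of all 1013 genes with at least 20 UMIs were past it (8.49% in either direction). With so few members no reading against that share was made, and the small gaps of tbx16, MYF5 and cdx4 were not read as differences.

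The axial mesoderm list, which covers the notochord and its precursors, held 0.222% and 0.235%. chrd, the gene of the Bmp antagonist Chordin, had 59 and 47 UMIs. tbxta, the Brachyury gene of the notochord and tailbud, had 29 and 45 UMIs, FOXA2 had 23 and 18 and the notochord homeobox gene noto had 6 and 11. A Sonic hedgehog row (SHH) had 1 UMI in lot 1. Of the prechordal plate genes, the Wnt antagonist gene frzb had 5 and 11 UMIs, the cathepsin gene ctslb had 7 in each lot, dkk1b, another secreted Wnt antagonist, had 4 and 5 and the organizer homeobox gene GSC had 4 and 1.

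The neural plate list held 0.525% and 0.445%. Besides its leading member sox19a, otx2a, a homeobox gene of forebrain and midbrain, had 22 and 19 UMIs and SOX3 had 24 and 16. irx7 had 19 and 13 UMIs, ZIC2 had 15 and 14 in its main row, SOX2 had 12 and 9, and the hindbrain-side gene GBX1 had 9 and 20. Of the 11 list members with at least 20 UMIs, 1 was past 2-fold, toward lot 2. Over all 1013 such genes the share was 8.49% in either direction and 4.94% toward lot 2, so no reading was made. pou5f3, the zebrafish relative of the pluripotency gene Oct4, had 21 and 26 UMIs. It also belongs to a list of early zygotic and pluripotency-type factors, which held 0.315% and 0.284% with a UMI for 19 of 25 rows. In that list mych, a Myc family gene, had 18 and 15 UMIs, klf17 had 4 in each lot and SALL4 had 4 and 2, while both EOMES rows were at 0.

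Genes of the outer ectoderm were less abundant. The epidermal list held 0.148% and 0.169%, and its leading member was the keratin gene krt18a.1, which the enveloping layer list also holds, with 19.4% of the sum. Of the other epidermal genes, TFAP2A had 16 and 15 UMIs, TFAP2C had 13 and 9, GATA2 had 11 and 8 and TP63, the master factor of stratified epithelia, had 4 and 3. In the enveloping layer, the epithelial sheet that covers the blastoderm, the keratin genes krt8 and krt18a.1 had 35 and 19 UMIs in lot 1 and 27 and 18 in lot 2. krt4 had 10 in lot 1 and 2 in lot 2. The claudin genes cldne and cldnf and the keratin gene krt92 were at 0.

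Endoderm had little direct signal. sox32, which specifies endoderm in zebrafish, had 4 UMIs in each lot and SOX17 had 4 and 2. The larger sum of the endoderm list, 0.104% and 0.0861%, came mostly from FOXA2 and CXCR4, which other layers also use. In ventrolateral mesoderm, OSR1, a kidney progenitor gene, had 29 and 39 UMIs and drl, an early lateral plate gene, had 10 in each lot, while the blood genes TAL1, LMO2 and gata1a were at 0. The germ cell list held 0.0391% and 0.0337%, with a UMI for 8 of 19 rows, and 72.7% of that was CXCR4. Of its defining genes, NANOS3 had 1 UMI per lot, dnd1 had 1 in lot 2, and DDX4 and DAZL had none.

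The yolk list had a mixed pattern. Its sum of 0.498% and 0.521% was nearly all apoeb with 131 and 128 UMIs, apoc1 with 127 and 109 and the cathepsin gene ctsla with 39 and 63, which made up 97.2% of it. The yolk syncytial layer markers mxtx1, mxtx2, apoa1b, apoa2 and apobb.1 were all at 0 in both lots. Of 34 listed rows, 6 had a UMI.

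**Figure D4:**
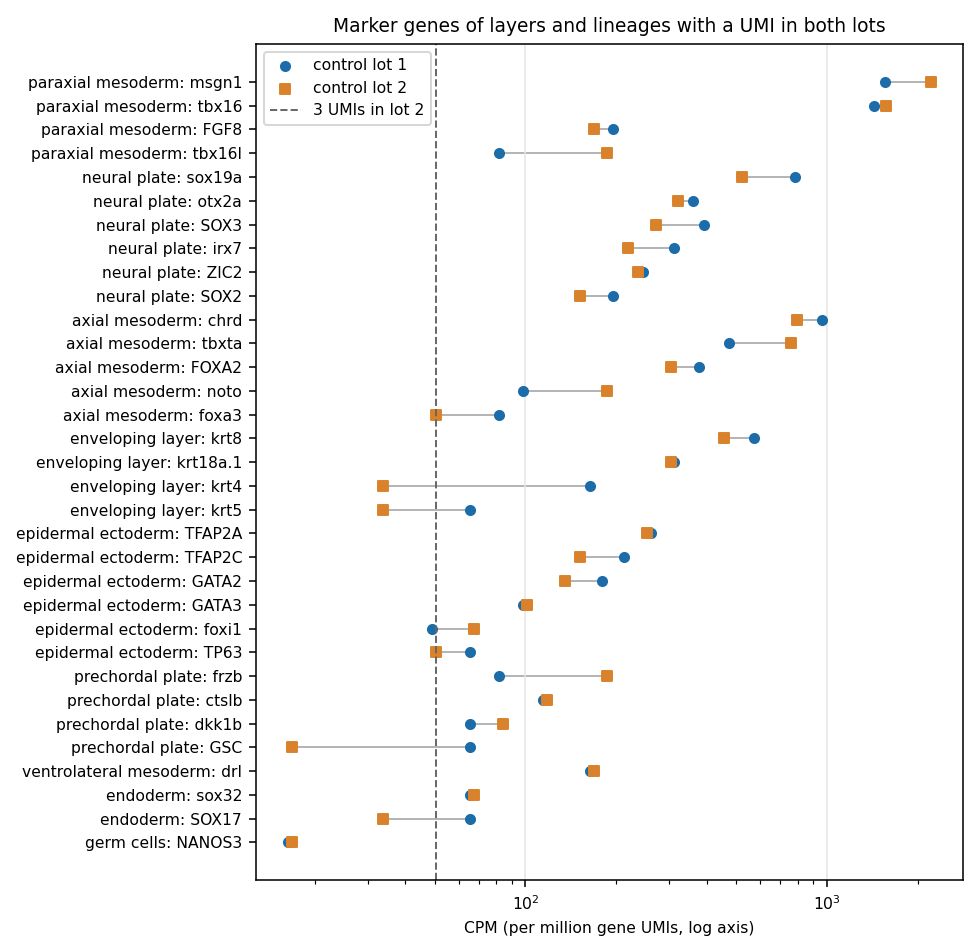
CPM (x axis, log scale) of marker genes with a UMI in both control lots, up to 6 per layer or lineage, with a circle for lot 1 and a square for lot 2; the dashed line is the level of 3 UMIs in lot 2. msgn1 and tbx16 of paraxial mesoderm stand highest, and the endoderm and germ cell markers lie near or below the line.

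Transcription factor families were also summed, and pbx4 alone exceeded the sum of each other family. The Pbx, Meis and Tgif genes held 0.794% and 0.761% of the UMIs, and 90.1% of that was pbx4. T-box genes held 0.220% and 0.292%, Hes and Her genes 0.202% and 0.223%, Sox genes 0.197% and 0.142% and forkhead genes 0.152% and 0.123%. Hox genes, whose products bind DNA together with Pbx proteins, held 0.0130% and 0.0270%. Of 47 Hox rows, 7 had a UMI, HOXB9 with 1 and 5 and HOXC6 with 1 and 4 being the highest. Over all gene rows, 7409 of 32266 had a UMI in either lot, so no reading of the Hox count was made. Between the lots, the T-box sum was 1.33 times as high in lot 2 (interval 1.05 to 1.67) and the Sox sum 1.39 times as high in lot 1 (1.05 to 1.86). The Klf and Sp sum was 1.82 times as high in lot 2 (1.21 to 2.79), with SP5 as 55.2% of it, and the Smad sum 2.01 times as high in lot 2 (1.11 to 3.77), with SMAD5 as 64.2% of it. The other 12 families had intervals that included 1.

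The signalling lists were read by role, and members outside the 8 most abundant of a list were singled out after their values were seen. Where rows of these lists share a symbol, as for FZD8, FGF8, BMP2, ACVR1B, CRABP2, NRARP and NOTCH1, values are of the row with the most UMIs. In the Wnt list, which held 1.06% and 1.07% of the UMIs, the ligands were scarce. wnt11f2, a ligand of convergence and extension, had 4 and 7 UMIs, wnt4b had 1 in each lot, WNT8B had 1 in lot 1, and both WNT8A rows, WNT3A, WNT5B and wnt3 were at 0. Some receptors were better seen: FZD8 had 66 and 17 UMIs, FZD7 had 24 and 13 in its main row and the co-receptor LRP6 had 14 and 18. Other receptors were as scarce as the ligands. FZD2 had 4 and 1 UMIs, the co-receptor LRP5 had 5 and 0, and FZD4, FZD5, fzd6 and the FZD9 rows were at 0. Downstream of CTNNB1, the corepressor gene tle2a had 30 and 37 UMIs and TCF7L1, a repressor in the absence of Wnt, had 17 and 20, while LEF1 had 4 and 2.

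Wnt target and feedback genes covered a wide range. CCND1 and cdx4 had the values given above. SP5, a direct Wnt target, had 15 and 43 UMIs, NKD1, a feedback inhibitor, had 9 and 15, and AXIN2, a common readout of Wnt activity, had a single UMI in lot 1. Of these, SP5 was past 2-fold between the lots.

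In the Fgf list, at 0.498% and 0.505%, the receptor fgfr4 led with 55 and 105 UMIs. FGF8 was the ligand with the most counts, at 12 and 10 in its main row, before fgf24 with 4 and 6. The feedback phosphatase DUSP6 had 49 and 30 UMIs, and the Ets targets ETV4 and etv5b had 14 and 19 in lot 1 and 24 and 15 in lot 2. IL17RD (Sef), a membrane inhibitor of Fgf signalling, had 40 UMIs in lot 1 and 6 in lot 2.

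In the Bmp list, at 0.395% and 0.380%, the ligands BMP4 and bmp7a had 8 and 4 UMIs in lot 1 and 9 and 5 in lot 2, and BMP2 had 3 and 1. The antagonist chrd exceeded all of them. szl, which protects Chordin from cleavage, had 19 and 14 UMIs. The Bmp target ID1 and vox, a repressor of organizer genes on the ventral side, had 15 and 19 UMIs in lot 1 and 19 and 15 in lot 2, and the transducer SMAD5 had 9 and 25. BAMBI, a decoy receptor, had 7 and 18 UMIs in its main row.

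The Nodal list held only 0.0522% and 0.0540%. The ligands ndr1 and ndr2 and the antagonist lft1 were at 0, the co-receptor tdgf1 had 1 UMI in each lot, and the receptor ACVR1B had 16 and 14. The retinoic acid list held 0.326% and 0.304%, led by the binding protein CRABP2 with 83 and 82 UMIs, and the degrading enzyme CYP26A1 had 9 and 4. In the Notch list, at 0.312% and 0.290%, the feedback gene NRARP had 67 and 44 UMIs and the receptor NOTCH1 had 12 and 16. The Hedgehog list held 0.0326% and 0.0337%, of which the transducer SMO made up 47.5%.

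The Hippo list held 0.163% and 0.202%, of which YAP1, its transcriptional coactivator, made up 73.6% with 79 and 83 UMIs. Its targets CCN1 and CCN2 were at 0. Among genes of cell movement, the chemokine gene CXCL12 had 29 and 24 UMIs and the apelin receptor gene aplnrb had 19 and 27. N-cadherin (CDH2) had 12 and 21 UMIs and E-cadherin (cdh1) had 7 and 9. At such counts the order of the cadherins was not tested.

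The lots were then compared with each other, with 1 library on each side and hence no p-value. They were not copies: over the 1013 genes with at least 20 UMIs, the counts had a chi-square of 2.26 per degree of freedom against a common share. Across the 4382 genes with a UMI in both lots, log2 CPM had a Pearson r of 0.862 and CPM a Spearman rho of 0.794. These values are across genes of 2 libraries, which share their protocol, and genes are not independent replicates. The top 30 rows of the lots shared 26, the top 100 shared 88 and the top 500 shared 431.

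Of the 1013 genes, 86 (8.49%) differed by 2-fold or more, 50 (4.94%) toward lot 2 and 36 (3.55%) toward lot 1, and 728 lay within 1.5-fold. With DESeq2 size factors the split was 39 toward lot 2 and 42 toward lot 1. In 108 genes (10.7%) the exact binomial interval of the share of lot 1 did not include the share of 50.8% that lot 1 had of all UMIs. The median absolute log2 ratio was 0.44 in genes with 20 to 49 UMIs and 0.23 in the 77 genes with 200 or more. The chi-square per degree of freedom, which rises with the count for any fixed relative spread, was 1.38 and 9.44 in the same order. edgeR's common dispersion gave a biological coefficient of variation of 0.165.

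Of the 414 genes with a symbol and at least 50 UMIs, 8 were 2-fold or more higher in each direction. Toward lot 2, FAM76B had 11 and 39 UMIs, a ratio of 3.67 (exact interval 1.84 to 7.94), and SP5 had a ratio of 2.97 (1.62 to 5.75). The histone variant gene h2ax1 had 31 and 87 UMIs, a ratio of 2.90 (1.91 to 4.53), and MT-ATP6 a ratio of 2.06 (1.75 to 2.44). SRSF1 in 1 of its rows, HNRNPK, AMMECR1 and ppiab made up the rest, with ratios from 2.01 to 2.36.

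Toward lot 1, FZD8 had a ratio of 3.75 (2.18 to 6.82) and ANP32B, with 64 and 23 UMIs, of 2.69 (1.65 to 4.54). HSPE1 had a ratio of 2.26 (1.83 to 2.79) and elavl1a of 2.23 (1.75 to 2.86). cited4b, RAD23B, RPS7 and ddx61 made up the rest, with ratios from 2.01 to 2.49. These genes were picked as the extremes of the list, so their ratios are a description and their intervals are too narrow for that choice.

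**Figure D5:**
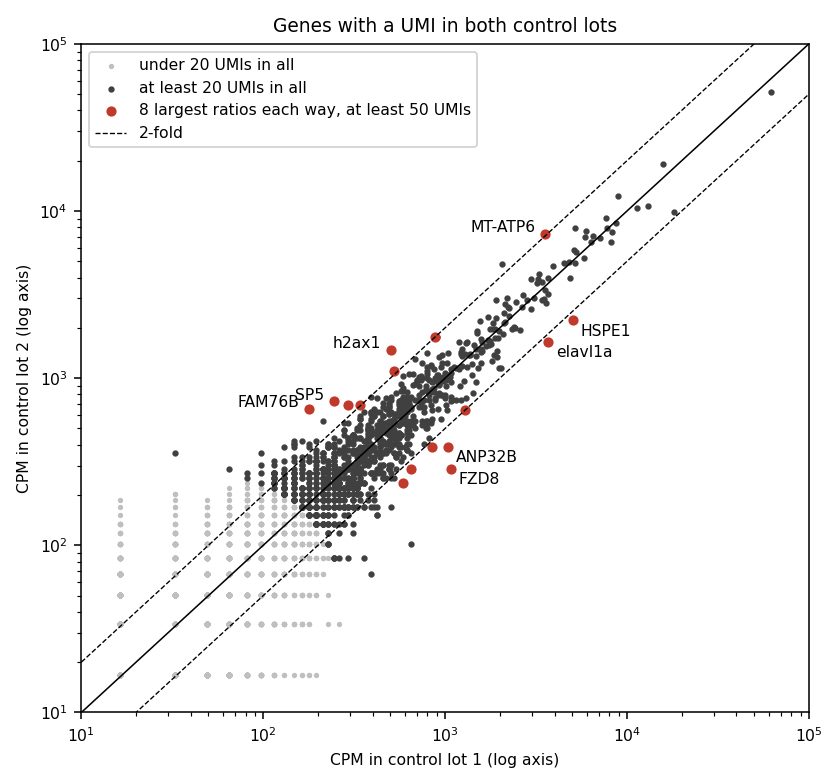
CPM in control lot 1 (x axis) against control lot 2 (y axis), both on log scales, for the 4382 genes with a UMI in both lots; grey points have under 20 UMIs in all, black points at least 20, and red points are the 8 largest ratios in each direction among genes with at least 50 UMIs and a symbol. The points close in on the solid line of equal level toward high CPM, and 86 of the 1013 genes with at least 20 UMIs lie on or beyond the dashed 2-fold lines.

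Class sums were also compared, though a single abundant member can carry much of a sum. In 20 of the 28 classes the exact interval of the ratio between the lots included 1. Histones had the largest ratio, 1.39 times as high a share in lot 2 (1.22 to 1.58), before the mitochondrially encoded genes at 1.33 (1.25 to 1.41). Splicing genes were 1.12 times as high in lot 1 (1.08 to 1.17) and adhesion genes 1.15 times as high (1.05 to 1.25). Both sums lean on their top member. hnrnpa0l, 15.5% of the splicing class, had 1107 UMIs in lot 1 and 583 in lot 2. gjc4b, 71.3% of the adhesion class, had 805 and 639. These 2 gaps were therefore not read as differences of the whole class. The same 5 classes were the largest in both lots, but only 12 of the 28 classes had the same rank in both. The median log2 difference, lot 2 minus lot 1, was 0.03 over all 1013 genes. It was 0.34 over the 8 histone genes, 0.27 over the 10 mitochondrially encoded genes, 0.14 over the 62 ribosomal protein genes and -0.09 over the 75 splicing genes among them. Past 2-fold were 3 of the 75 splicing genes (2 of them toward lot 2), 4 of the 62 ribosomal protein genes (3 toward lot 2), h2ax1 of the histones and MT-ATP6 of the mitochondrially encoded genes. Over all genes the share was 8.49%, and the splicing and ribosomal protein counts did not exceed it.

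Among the layer lists, paraxial and tailbud mesoderm was 1.29 times as high in lot 2 (1.14 to 1.47) and the prechordal list 1.27 times as high in lot 1 (1.02 to 1.60). FZD8 was 25.9% of the prechordal list, and the 4 prechordal markers, which do not include it, were 1.24 times as high in lot 2 (0.657 to 2.37). Neural plate markers were 1.30 times as high in lot 1 (1.03 to 1.65), while the fuller neural plate list was 1.18 times as high (0.999 to 1.39), an interval that includes 1. For all 10 signalling lists the interval included 1. Whether the lots held different proportions of cells was not tested.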

How the data were processed

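Per the labels' protocols, RNA of the sorted cells was extracted with TRIzol and sequenced by CEL-Seq2. The authors deposited a table of raw counts, whole UMI numbers with a row per Ensembl gene and a column per library. The submitters' processing notes name the aligner Bowtie2 2.3.1, HTSeq 0.6.1 and GRCz10. The sources used here give no parameters, annotation release, UMI length or UMI collapse rule. The 5 rows that are no genes held 57.7% and 58.3% of the counts of control lots 1 and 2 and stayed out of totals.

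Counts of the control lots were divided by their gene totals to give CPM. Symbols came from a name table and covered 7081 of 7409 genes with a UMI; symbols in capitals (4549) are human-style names, and a symbol shared by several rows does not say which copy a row is. No sequences or positions were used. Python 3.11.15 with pandas 2.3.3 and scipy 1.17.1 gave sums and exact (Poisson and Clopper-Pearson) intervals. edgeR 4.0.16 in R 4.3.3 gave TMM factors and dispersion, and DESeq2 1.42.0 gave size factors. The median fold and the count of genes outside the interval were tested on simulated data. Those data held counting error only, without the further spread seen between the lots, and the count of genes past 2-fold was not tested.

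The genes named were the 30 most abundant, the leading members of each class (up to 5) or list (up to 8), defining members at 0, pairs with at least 20 UMIs and the 8 largest ratios between the lots in each direction among genes with at least 50 UMIs. Other genes were singled out after their values were seen. Members and lists were chosen with earlier results of these data known. Symbol patterns that caught unrelated genes were corrected, and the transcription factor families added, after values were seen. The list entries by name numbered 805, of which 763 matched the table, 217 through a human-style symbol. Results for some listed genes are not reported here.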

Additional observations from a re-analysis of the deposited data

Results flagged for a closer look

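Counts outside the gene rows were a large part of the libraries. The row for reads outside annotated features held 35.96% of all counts in lot 1 (exact interval 35.7% to 36.2%) and 34.6% in lot 2 (34.4% to 34.9%). It was singled out because no gene level uses these counts. The sources used here do not say whether these counts are UMIs or reads, and which genes they would belong to was not tested.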

How the results depend on the processing

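Detection and fold counts followed the threshold. Genes detected numbered 4382 with a UMI in both lots, 7409 in either and 2235 with at least 3 UMIs in each, and 5841 to 5950 with a single lot. The 86 genes past 2-fold became 294 with at least 10 summed UMIs, 17 with at least 50 and 1212 with no filter but a UMI in both lots, and 285 at 1.5-fold and 13 at 3-fold. TMM factors gave 85 and DESeq2 size factors 81. With DESeq2 factors the share of those genes toward lot 2 was 48.1%, against 58.1% by library totals. With a 99% interval, 53 genes rather than 108 fell outside it, and some of either number would do so by counting error alone. The coefficient of variation stayed between 0.165 and 0.166, and 50% of the UMIs lay in 140 to 192 genes. In either lot alone splicing held 85015 to 95459 CPM and mitochondrially encoded genes 33081 to 43925.

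Class sums moved with the denominator by construction. With the rows that are no genes in the total, splicing held 37885 CPM, chaperones 20363, ribosomal proteins 17958 and mitochondrially encoded genes 16142, against 90237, 48533, 42804 and 38503. Without the most abundant row, chaperones held 51442 and ribosomal proteins 45368 CPM. Without the mitochondrially encoded genes as well, splicing held 99728, chaperones 53640 and ribosomal proteins 47308. Corrected for shared tags, chaperones held 46021 and ribosomal proteins 39665, and all 28 classes kept their rank in the mean of the lots. Between lot 1 and lot 2, only 12 of the 28 had the same rank. No paired analysis was possible because a single group was used. Counting error limits genes under 20 UMIs most.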

Other observations

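A list of transcripts known as maternal in zebrafish held 0.297% of the UMIs in lot 1 and 0.295% in lot 2, with a UMI for 13 of 27 rows. YBX1, whose product binds and represses maternal mRNA, had 75 and 44 UMIs. The tubulin genes tuba8l4 and tuba8l2 had 22 and 23 UMIs in lot 1 and 37 and 24 in lot 2. Markers of this list that are also made by dividing embryonic cells, such as CCNB1 with 19 and 14 UMIs, cannot be assigned to a maternal or zygotic source from these counts.

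Genes of neural crest and placodes held 0.0538% and 0.0489%, and 50% of that was TFAP2A, which epidermal ectoderm also uses. msx1b had 12 and 5 UMIs, PAX3 had 2 in each lot, snai2 had 1 in lot 1 and snai1b had 1 in lot 2. Of the iron storage and redox genes, the ferritin gene fthl27 had 60 UMIs in each lot, fth1a had 27 and 23 and thioredoxin (TXN) had 32 and 28. The cardiac-type actin genes actc1a and actc1c, with 36 and 34 UMIs in lot 1 and 35 and 37 in lot 2, stood well above the related muscle gene actc1b, which was at 0.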
